A study of Rattus norvegicus with 8 samples.

Results

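Transcript levels of 10 genes of bone morphogenetic protein (BMP) signaling were compared in primary rat nucleus pulposus (NP) cells after knockdown of Sirt6, a NAD+-dependent histone deacetylase. These are RNA levels, and the activity of the pathway was not measured. The genes were the ligands Bmp2, Bmp4 and Bmp6, the receptors Bmpr1a and Bmpr2, the secreted antagonist Grem1, the inhibitory Smad6 and the target genes Id1, Id2 and Id3. They were chosen by symbol, each symbol matched 1 row of the count table, and all 10 genes passed the filter on low counts that left 13250 of the 32975 rows as genes tested.

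The cells came from discs of adult Sprague Dawley rats and were grown in DMEM with serum. The Sirt6-KD libraries (genotype SIRT6KD/ShSirt6, n = 4, named S5 to S8) were from cells transduced with a lentiviral mixture of ShSirt6 clones, so the group is a mixed population and not a single clone. The Sirt6-Ctrl libraries (genotype SIRT6Ctrl/ShCtrl, n = 4, named S1 to S4) were from cells transduced with a control ShRNA, and virus and puromycin selection were shared by both groups. The series record names 4 rats, but no label ties a library to a rat, so p-values measure the spread between these libraries.

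BMPs are secreted dimers that assemble type I and type II receptor kinases at the cell surface. The type I receptor phosphorylates SMAD1, SMAD5 and SMAD9, which enter the nucleus with SMAD4 and switch on the Id genes and the feedback inhibitors SMAD6 and SMAD7. Gremlin and related proteins bind the ligands outside the cell and keep them from the receptors. In the skeleton the pathway is best known for driving cartilage and bone formation, and BMP ligands stimulate matrix synthesis by disc cells.

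Libraries held 31994838 to 40124813 counts. Levels are in CPM, counts relative to the library total with TMM factors that allow for differences in RNA composition, and each gene was compared only with itself because CPM does not account for gene length. Means are followed by ± SD over the 4 libraries of a group, and log2 fold changes (Sirt6-KD relative to Sirt6-Ctrl, so positive values are higher after knockdown) by their standard error (SE) or 95% confidence interval. Sirt6 was 52.7 ± 3.78 CPM in Sirt6-Ctrl against 20.6 ± 1.07 CPM in Sirt6-KD, or -1.35 on the log2 scale (SE 0.13, adjusted p = 0.000713, edgeR). ERCC spike-ins, synthetic RNAs added as a reference, took 2.97% to 9.80% of the counts in Sirt6-Ctrl, highest in S1 and S2, and 2.15% to 2.47% in Sirt6-KD (p = 0.0286 by an exact permutation of the group labels, two-sided, which is the lowest value possible with 4 libraries per group). Scaling by them moved the all-gene median of log2 fold changes to 0.94, where Sirt6 was -0.36 and not called (adjusted p = 0.567, edgeR) but 1.31 under that median. Of 13 symbols of notochordal and NP markers, with T and Tbxt naming the same gene, 6 had a named row (Krt8, Cd24, Car3, Acan, Sox9 and Foxa2). Their summed level was 66.1 to 109 CPM in Sirt6-Ctrl against 39.0 to 60.2 CPM in Sirt6-KD, and Krt8 and Car3 were called lower. The markers T (brachyury, also listed as Tbxt), Noto, Shh, Krt18, Krt19 and Col2a1 had no row in the table of gene names, which holds rows with more than 80 counts over all libraries. The 5 annulus or tendon fibroblast markers with a row summed to 13363 to 25369 CPM in Sirt6-Ctrl against 7998 to 17520.0 CPM in Sirt6-KD, nearly all of it Col1a1, and 1 of them (Scx) was called lower. Macrophage markers summed to 11.9 to 29.7 CPM in Sirt6-Ctrl against 14.96 to 23.9 CPM in Sirt6-KD over 3 of 6 genes, with no row for Ptprc, Itgam and Adgre1. Endothelial markers reached at most 0.592 CPM over 1 of 6 genes. Osteoblast markers summed to 2.57 to 5.599 CPM in Sirt6-Ctrl against 0.597 to 1.98 CPM in Sirt6-KD over 2 of 4 genes, of which Alpl was called lower. Hypertrophic or endplate chondrocyte markers had 1 of 3 genes with a row (Ihh), at 4.02 CPM in S2 and 0 to 0.287 CPM in the other libraries. Smooth muscle or pericyte markers (5 of 6 genes) summed to 352, 645, 747 and 2620 CPM in S1 to S4 and to 1120, 1014, 873 and 2154 CPM in S5 to S8, so S4 and S8 stood above the other libraries of their groups, and 0 of these genes were called by edgeR or had an unadjusted p below 0.05.

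After knockdown 2 BMP ligand transcripts were higher and the 3 Id transcripts among the 10 genes had lower means, with 1 of these Id genes passing the test. With spike-in scaling the log2 fold changes of these 3 Id genes were positive but under the all-gene median. A gene was called where edgeR's quasi-likelihood test gave an adjusted p (over all rows tested) under 0.05 together with a change of more than 1.5-fold. By this rule Bmp2 and Bmp6 rose 2.71-fold and 2.80-fold and Id2 fell, while the other 7 genes were not called. Over all genes tested, 8.02% were called higher and 10.7% lower (18.7% in either direction), so the share of lower calls among the 10 genes was near that of all genes and the higher calls rest on 2 genes. An unadjusted p below 0.05 was reached by 5 of the 10 genes, against 36.6% of all genes. Log2 fold changes had a median of 0.12 over the 10 genes and -0.02 over all genes. Every Sirt6-KD library lay above every Sirt6-Ctrl library for Bmp2, Bmp6 and Bmpr2, a pattern that 14.8% of all genes showed. The reverse held for Id2 and Id3, as for 15.6% of all genes (30.4% in either direction).

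**Figure D1:**
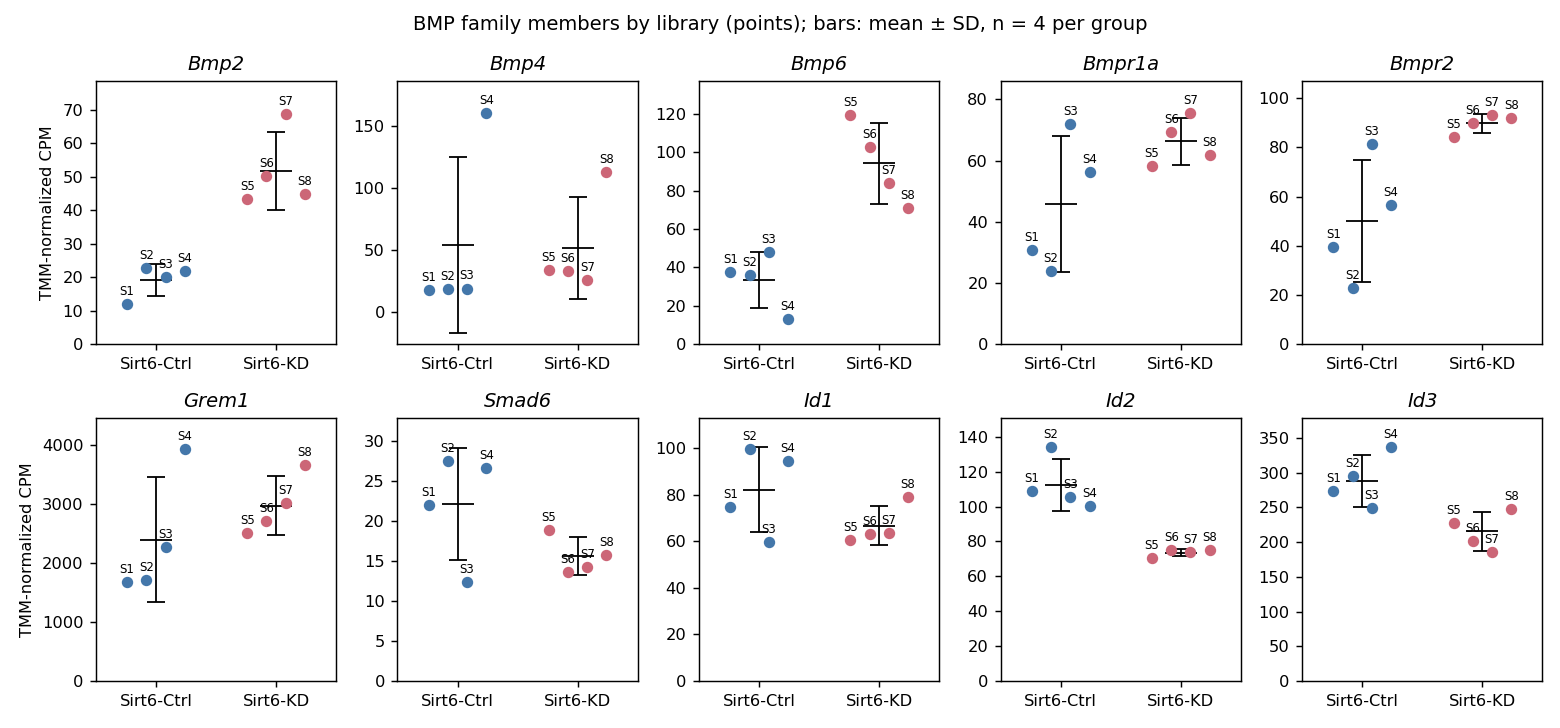
Level of each of the 10 BMP family genes in each library (TMM-normalized CPM, linear axis), with Sirt6-Ctrl libraries S1 to S4 in blue and Sirt6-KD libraries S5 to S8 in red, and black bars for the mean ± SD of 4 libraries. The groups do not overlap for Bmp2, Bmp6, Bmpr2, Id2 and Id3, and S4 and S8 are the highest of their groups for Bmp4 and Grem1.

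Bmp2 (ENSRNOG00000021276), a ligand that induces bone and cartilage, was 12.1, 22.7, 19.9 and 21.8 CPM in S1 to S4 and 43.2, 50.4, 68.6 and 44.8 CPM in S5 to S8. The lowest Sirt6-KD library was thus well above the highest Sirt6-Ctrl library, with S1 low among controls and S7 high among knockdown libraries. Its mean went from 19.1 ± 4.83 to 51.8 ± 11.7 CPM, or 1.44 on the log2 scale (SE 0.23, adjusted p = 0.00435, edgeR). Of the 10 genes it was the 1 that also passed glmTreat, a test against a fold change of 1.5. Leaving out any library kept Bmp2 called, with log2 fold changes of 1.27 to 1.54. Bulk RNA cannot tell a change in the share of cells that make a transcript from a change in the amount per cell, here or for any gene that follows.

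Bmp6 (ENSRNOG00000013717), a ligand of the BMP5, BMP6 and BMP7 subgroup with a role in iron balance and chondrocyte maturation, was 37.5, 35.9, 48.0 and 13.3 CPM in S1 to S4. It was 119, 103, 83.9 and 71.1 CPM in S5 to S8. S4 was the lowest control and S8 the lowest knockdown library, and the groups did not overlap. The mean went from 33.7 ± 14.6 to 94.3 ± 21.1 CPM, or 1.49 on the log2 scale (SE 0.33, adjusted p = 0.0134, edgeR), and it stayed called with any 1 library left out (1.22 to 1.71) but not with glmTreat (adjusted p = 0.0899). With libraries scaled by spike-ins the log2 fold changes of Bmp2 and Bmp6 were 2.37 and 2.495, or 1.43 and 1.55 above the median of all genes, and neither was called (edgeR, adjusted p = 0.0711 for each).

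Bmp4 (ENSRNOG00000009694), a ligand close to BMP2 that signals through the same receptors, was 17.7, 19.0 and 19.1 CPM in S1 to S3 and 160.2 CPM in S4. In Sirt6-KD it was 34.0, 33.0 and 26.1 CPM in S5 to S7 and 113 CPM in S8. A single library in each group therefore held most of the counts, and the ranges overlapped. The log2 fold change was -0.07 with a 95% confidence interval of -1.75 to 1.62 (adjusted p = 0.962, edgeR). S4 and S8 were also the highest of their groups for smooth muscle or pericyte markers. The order of the 8 libraries by Bmp4 was the same as their order by the summed marker level (S1, S2, S3, S7, S6, S5, S8, S4), where the points share library and group, and the part of these markers in the Bmp4 values was not tested.

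**Figure D2:**
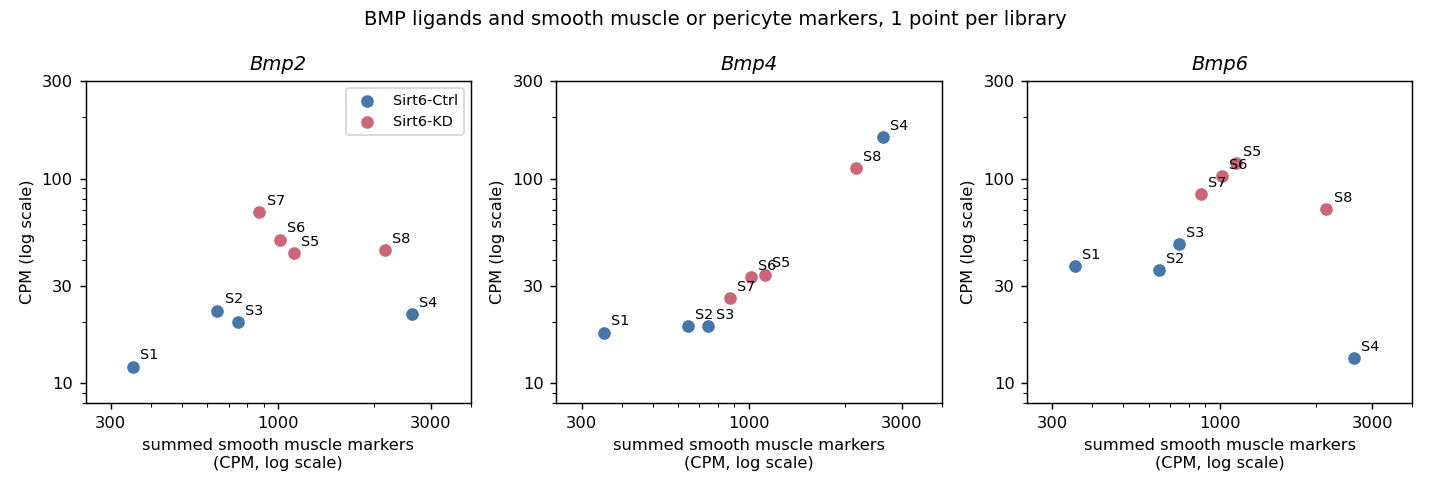
CPM of Bmp2, Bmp4 and Bmp6 (vertical, log scale) against the summed CPM of 5 smooth muscle or pericyte markers (horizontal, log scale), 1 point per library, with Sirt6-Ctrl in blue and Sirt6-KD in red. S4 and S8 lie at the far right and are highest for Bmp4, while S4 and S8 are the lowest of their groups for Bmp6.

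With S4 and S8 left out, chosen by their marker sums after the data were seen, the Bmp4 log2 fold change was 0.75 and passed the call (adjusted p = 0.0494, edgeR, 3 libraries per group). Without S4 alone it was 1.47 (adjusted p = 0.0555, edgeR) and without S8 alone it was -0.78 (adjusted p = 0.542, edgeR). The value near 0 also changed sign without S5, S6 or S7, at 0.09, 0.10 and 0.15, so no direction was determined for Bmp4 with all libraries in the comparison. Bmp2 and Bmp6 stayed called without S4 and S8, with log2 fold changes of 1.58 and 1.35 (edgeR, adjusted p = 0.0229 and 0.0163). Acta2, which encodes smooth muscle actin, was 1048 CPM in S4 and 583 CPM in S8, against 19.8 to 76.2 CPM in S1 to S3 and 83.8 to 128 CPM in S5 to S7.

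Bmpr1a (ENSRNOG00000052469), a type I receptor for BMP2 and BMP4, was 30.9, 24.03, 72.0 and 56.3 CPM in S1 to S4 and 58.4, 69.5, 75.6 and 61.8 CPM in S5 to S8. S1 and S2 were low, S3 and S4 lay within or close to the Sirt6-KD range, and the groups overlapped. The log2 fold change was 0.53 (95% confidence interval -0.14 to 1.204, adjusted p = 0.230, edgeR). Without S1 and S2, the controls richest in spike-ins, it was 0.06, and without S3 it was 0.84 and called (adjusted p = 0.0398, edgeR). Across genes (log2 of CPM + 1), S3 correlated at r = 0.971 to 0.973 with S5 to S8. With the controls S1, S2 and S4 it correlated at 0.959, 0.930 and 0.967. Sirt6 was 52.5 CPM in S3, within the 47.6 to 56.4 CPM of the other controls. The omission of S3 also changed results of genes described below, and the cause was not tested.

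Bmpr2 (ENSRNOG00000022196), the type II receptor that serves most BMP ligands, was 39.5, 22.9, 81.2 and 56.6 CPM in S1 to S4. The Sirt6-KD libraries lay close together at 84.3, 89.8, 92.9 and 92.1 CPM, above every control. The mean went from 50.04 ± 24.9 to 89.8 ± 3.87 CPM, a log2 fold change of 0.84 (95% confidence interval 0.16 to 1.52) that did not pass adjustment (adjusted p = 0.0731, edgeR). DESeq2 and limma-voom called it (adjusted p = 0.0333 and 0.0304), as did edgeR without S3 (log2 fold change 1.18, adjusted p = 0.00836). Without S1 and S2 its log2 fold change was 0.39 (adjusted p = 0.127, edgeR).

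Grem1 (ENSRNOG00000026053), the secreted antagonist gremlin 1 that binds BMP2 and BMP4, was 1674, 1702, 2260.3 and 3924 CPM in S1 to S4 and 2507, 2712, 3014 and 3651 CPM in S5 to S8. S4 was the highest of all libraries and the 4 Sirt6-KD libraries lay between S3 and S4. Its log2 fold change was 0.31 (95% confidence interval -0.29 to 0.91, adjusted p = 0.439, edgeR). It was called higher without S4 (0.66, adjusted p = 0.0338, edgeR), and it was -0.05 without S1 and S2.

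Smad6 (ENSRNOG00000009173), an inhibitory SMAD that blocks BMP type I receptors and is itself induced by the pathway, was 22.01, 27.5, 12.4 and 26.7 CPM in S1 to S4 and 18.9, 13.6, 14.3 and 15.8 CPM in S5 to S8. S1, S2 and S4 were above every Sirt6-KD library and S3 was below all of them. The log2 fold change was -0.50 (95% confidence interval -1.08 to 0.07, adjusted p = 0.190, edgeR), and without S3 it was -0.70 and called (adjusted p = 0.023, edgeR).

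The Id genes encode helix-loop-helix proteins without a DNA-binding region, which hold back differentiation by pairing with basic helix-loop-helix factors, and they are the standard direct readout of BMP receptor activity. RefSeq promoter windows (assembly GRCr8) were matched by symbol for 8 of the 10 genes. The 250 bases before the start are shown for the Id genes, the pathway targets among the 10 genes, of which Id2 was called lower and Id1 and Id3 were not called, and for Bmp6, the called ligand that had a window. Motifs were searched on both strands, namely the CCAAT box, the TATA box TATAAA, the E-box CACGTG, the GC-rich SMAD motif GGCGCC and the SMAD palindrome GTCTAGAC, and capitals mark any match. The Id1 window is chr3:161671314-161671563, plus strand, that of Id2 chr6:47470996-47471245, minus strand, that of Id3 chr5:153656041-153656290, plus strand, and that of Bmp6 chr17:26675262-26675511, minus strand.
Id1: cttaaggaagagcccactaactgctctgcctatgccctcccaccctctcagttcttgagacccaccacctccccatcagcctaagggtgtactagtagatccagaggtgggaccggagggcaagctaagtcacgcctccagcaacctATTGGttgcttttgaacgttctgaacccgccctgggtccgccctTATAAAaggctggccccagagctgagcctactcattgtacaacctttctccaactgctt
Id2: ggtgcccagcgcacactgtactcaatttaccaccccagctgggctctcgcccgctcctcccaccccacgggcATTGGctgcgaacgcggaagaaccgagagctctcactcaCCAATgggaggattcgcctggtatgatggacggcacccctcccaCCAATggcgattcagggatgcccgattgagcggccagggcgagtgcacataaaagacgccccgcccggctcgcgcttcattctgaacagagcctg
Id3: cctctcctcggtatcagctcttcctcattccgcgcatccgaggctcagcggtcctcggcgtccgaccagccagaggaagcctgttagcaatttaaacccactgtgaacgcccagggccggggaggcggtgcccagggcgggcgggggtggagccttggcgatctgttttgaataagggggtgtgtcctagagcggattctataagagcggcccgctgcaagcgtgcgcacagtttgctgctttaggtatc
Bmp6: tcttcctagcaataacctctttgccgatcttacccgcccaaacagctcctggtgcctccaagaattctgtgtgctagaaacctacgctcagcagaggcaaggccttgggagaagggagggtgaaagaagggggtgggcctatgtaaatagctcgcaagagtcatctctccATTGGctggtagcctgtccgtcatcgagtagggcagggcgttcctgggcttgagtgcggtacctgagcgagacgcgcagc

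In the Id1 window 1 CCAAT box began 103 bases before the start, on the opposite strand, and TATAAA began 59 bases before it. The Id2 window held 3 CCAAT matches, which began 178, 139 and 95 bases before the start, the first on the opposite strand. The Id3 window held none of the 5 motifs, and that of Bmp6 held 1 CCAAT match on the opposite strand. Among 33469 windows of the same length, 34% held CCAAT and 12.9% held TATAAA. The motif GGCGCC, present in 8.69% of all windows, occurred in that of Grem1 alone among the 8, and GTCTAGAC (0.173% of all windows) in none of them. Sequence outside these 250 bases was not searched, so the absence of a match does not extend to more distant sites. CACGTG, in 5.59% of all windows, occurred in that of Bmp4 alone.

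Id2 (ENSRNOG00000007237) was 109, 134, 106 and 100.04 CPM in S1 to S4 and 70.6, 74.9, 73.8 and 75.0 CPM in S5 to S8. All Sirt6-KD libraries lay within 5 CPM of each other and below every control. The mean went from 112 ± 15.01 to 73.6 ± 2.03 CPM, or -0.61 on the log2 scale (SE 0.12, adjusted p = 0.0101, edgeR), or 1.52-fold, just past the fold threshold. It dropped under that threshold with upper-quartile factors, with the spike-in rows removed, with no filter, and without S2 (-0.50), S8 (-0.58), or both S1 and S2 (-0.47), at adjusted p-values of 0.00867 to 0.0307 (edgeR). With spike-in scaling it was 0.42, which was 0.52 below the median of all genes.

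Id3 (ENSRNOG00000026124) was 273, 295, 249 and 337 CPM in S1 to S4 and 227, 202, 185 and 248 CPM in S5 to S8. The groups did not overlap, but S3 at 248.7 CPM and S8 at 248.3 CPM nearly met. The log2 fold change was -0.42 (95% confidence interval -0.74 to -0.10, adjusted p = 0.0594, edgeR). The adjusted p was 0.0423 with DESeq2, 0.047 with limma-voom and 0.0276 with edgeR without S3. Id3 was under the fold threshold in each of these and was not called. Id1 (ENSRNOG00000021750) was 74.9, 99.8, 59.8 and 94.8 CPM in S1 to S4 and 60.7, 63.0, 63.7 and 79.1 CPM in S5 to S8. The groups overlapped, with S3 the lowest library of all and S8 above both S1 and S3, and the log2 fold change was -0.30 (95% confidence interval -0.70 to 0.09, adjusted p = 0.241, edgeR). With spike-in scaling Smad6, Id1 and Id3 had log2 fold changes of 0.56, 0.72 and 0.53, each below the median of all genes.

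**Figure D3:**
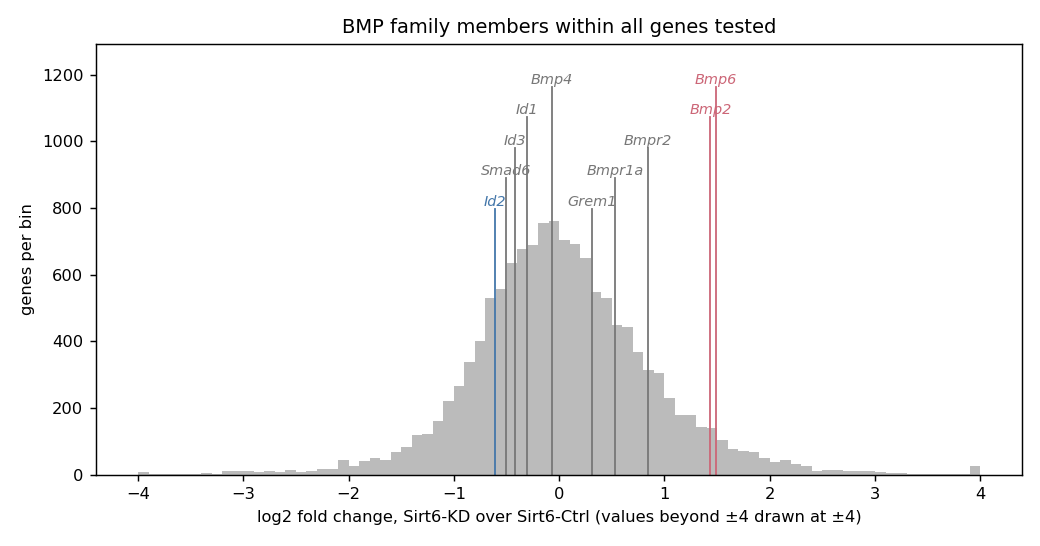
Log2 fold changes of all 13250 genes tested (grey, genes per bin) with the 10 BMP family genes drawn as lines, red for called higher, blue for called lower and dark grey for not called. Bmp2 and Bmp6 lie in the right tail, with 94.5% and 95% of genes below them, while Id2 lies nearer the middle, with 19.8% of genes below it.

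Beyond these genes, a list of 56 other BMP pathway genes was examined by role. Of these, 18 had no row in the table of gene names and 38 were tested. There were 6 called higher and 1 called lower, against 8.02% and 10.7% of all genes. The counts by role given below are small, and 18.7% of all genes were called in either direction. Every Sirt6-KD library lay above every Sirt6-Ctrl library for 7 of the 38 and below for 2. Over all genes these patterns held for 14.8% and 15.6%. Positive log2 fold changes were found for 28 of the 38, against 49.1% of all genes, and the median was 0.34. For 32 of the 38, and for all 10 genes above, the log2 levels varied more among the Sirt6-Ctrl than among the Sirt6-KD libraries, as they did for 86.2% of all genes.

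**Figure D4:**
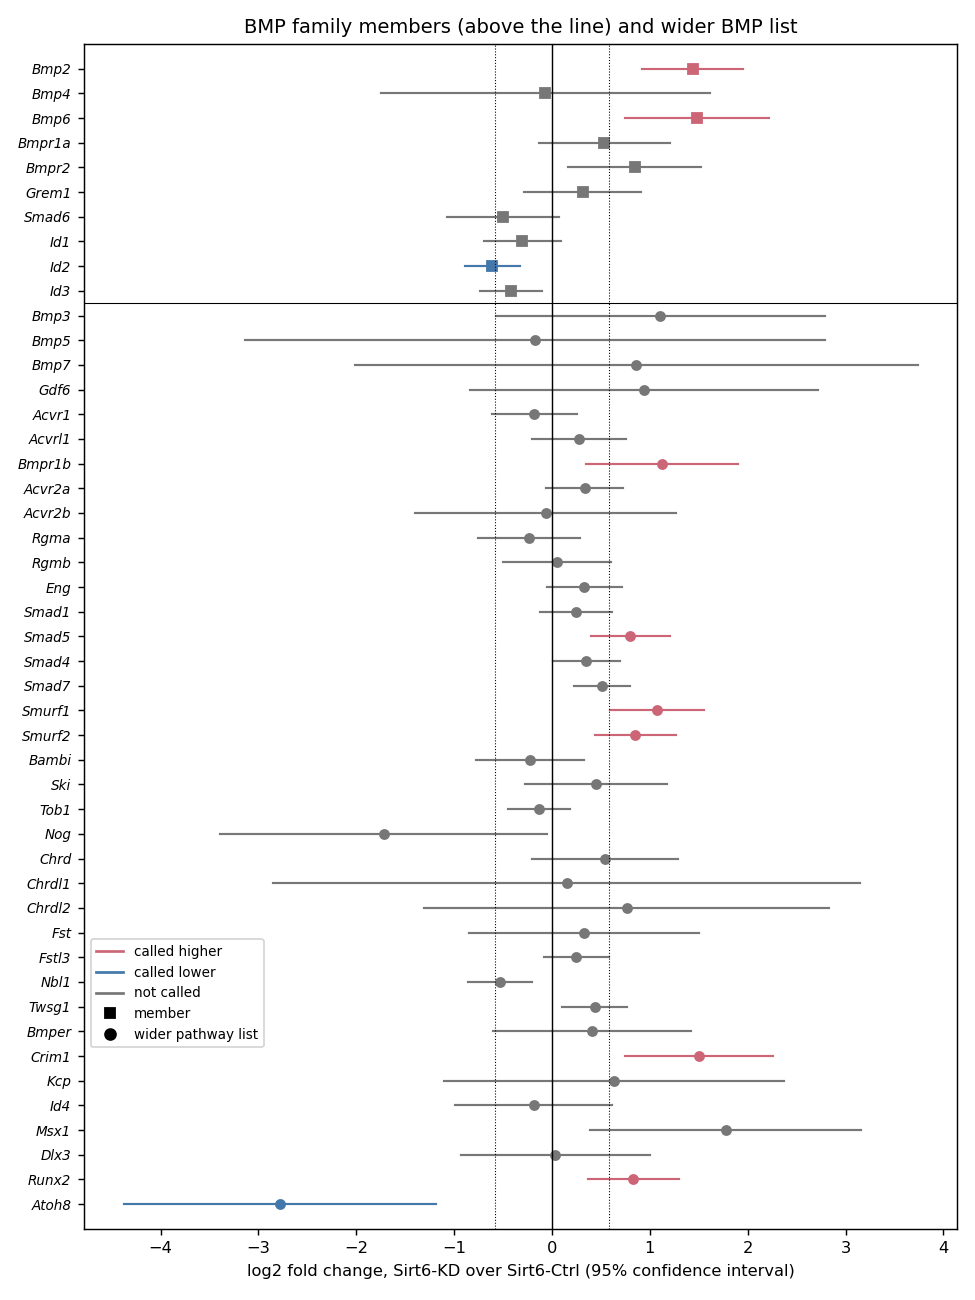
Change after knockdown (log2) with its 95% confidence interval for the 10 BMP family genes (squares, above the line) and the tested genes of the wider list (circles, 1 gene not drawn), with dotted lines at a fold change of 1.5. Red marks the genes called higher, blue those called lower and grey the rest, and Atoh8 has the largest fall at -2.78.

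Among ligands 4 of 12 were tested and 0 were called by edgeR, DESeq2 or limma-voom, and 0 had an unadjusted p below 0.05 (edgeR). Bmp3, the ligand of that list with the most counts, was 0.247 to 5.89 CPM in Sirt6-Ctrl against 3.55 to 7.72 CPM in Sirt6-KD (log2 fold change 1.11, 95% confidence interval -0.57 to 2.79, adjusted p = 0.322, edgeR). Without S4, its highest control, Bmp3 had a log2 fold change of 2.20 and was called (adjusted p = 0.0481, edgeR), and without S1 and S2 it was 0.37 (adjusted p = 0.679, edgeR). Of the type I receptors 1 of 3 was called. Bmpr1b, a type I receptor prominent in cartilage, was 7.90, 12.8, 29.1 and 12.3 CPM in S1 to S4 and 30.2, 35.8, 40.8 and 28.9 CPM in S5 to S8. S3 lay just above the lowest Sirt6-KD library, and the log2 fold change came to 1.13 (SE 0.35, adjusted p = 0.0433, edgeR). That call was lost when any library other than S3 was left out, with adjusted p-values of up to 0.116 (edgeR), and also without both S4 and S8 (adjusted p = 0.125, edgeR). Leaving out both S1 and S2 also ended the Bmpr1b call, with a log2 fold change of 0.72 (adjusted p = 0.159, edgeR). Neither type II receptor (Acvr2a, log2 fold change 0.34, adjusted p = 0.200, edgeR) nor any of the 3 co-receptors tested (Eng, endoglin, 0.33, adjusted p = 0.196, edgeR) was called by edgeR, DESeq2 or limma-voom, and 0 of these 5 genes had an unadjusted p below 0.05 (edgeR).

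Of the signal-transducing SMADs 1 of 3 was called. Smad5, a receptor-regulated SMAD, was 27.3, 17.3, 28.5 and 26.4 CPM in S1 to S4 and 43.2, 49.2, 42.2 and 38.7 CPM in S5 to S8, with every Sirt6-KD library above every control. Its log2 fold change came to 0.80 (SE 0.18, adjusted p = 0.0146, edgeR), and only the omission of S6 among single libraries ended the call (adjusted p = 0.057, edgeR). Among intracellular and membrane inhibitors 2 of 6 were called. Smurf1, a ubiquitin ligase that targets BMP SMADs and receptors for degradation, was 58.7 to 129 CPM in Sirt6-Ctrl against 177 to 228 CPM in Sirt6-KD (log2 fold change 1.07, SE 0.22, adjusted p = 0.0097, edgeR). Smurf2, its paralog, was 64.9 to 122 CPM in Sirt6-Ctrl against 143 to 184 CPM in Sirt6-KD (0.85, SE 0.19, adjusted p = 0.0128, edgeR). The groups overlapped for neither gene, and each stayed called with any 1 library left out. Without S1 and S2 both stayed called (edgeR, adjusted p = 0.0344 for Smurf1 and 0.0362 for Smurf2). Their log2 fold changes were then 1.13 and 0.595, that of Smurf2 just past the fold threshold.

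Of 12 tested secreted antagonists and modulators, 1 was called. Crim1, a cysteine-rich transmembrane protein that binds BMPs, was 104, 95.1, 300.5 and 250 CPM in S1 to S4 and 513, 535, 504 and 576 CPM in S5 to S8. S1 and S2 were the lowest, and all controls were below the knockdown libraries. The log2 fold change came to 1.51 (SE 0.34, adjusted p = 0.0141, edgeR), and 0.96 without S1 and S2, where it remained called (adjusted p = 0.0051, edgeR).

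Among the other target genes, 2 of 5 tested were called, in opposite directions. Id4, an Id gene of the wider list named outside the rule given below, had overlapping groups. It was not called (log2 fold change -0.19, adjusted p = 0.746, edgeR). Runx2, the transcription factor of the osteoblast lineage, was 11.2 to 19.9 CPM in Sirt6-Ctrl against 24.4 to 28.7 CPM in Sirt6-KD (log2 fold change 0.83, SE 0.21, adjusted p = 0.0208, edgeR). The Runx2 call was lost without S1, S5, S6 or S7 (adjusted p = 0.0566 to 0.0686, edgeR), and without both S4 and S8 (adjusted p = 0.0694, edgeR). Leaving out both S1 and S2 also ended it (adjusted p = 0.0591, edgeR). Atoh8, a basic helix-loop-helix factor induced by BMP signaling in endothelial and liver cells, was 28.2, 43.9, 10.2 and 23.2 CPM in S1 to S4. It was 1.04, 1.58 and 2.22 CPM in S5 to S7 and 10.5 CPM in S8, so S8 reached the level of S3. Its log2 fold change came to -2.78 (SE 0.72, adjusted p = 0.0221, edgeR). The Atoh8 call was lost without S1, S5, S6 or S7 (adjusted p = 0.0581 to 0.0707, edgeR), and without S4 and S8 the log2 fold change was -4.07 (adjusted p = 0.0158, edgeR). Leaving out both S1 and S2 also ended the Atoh8 call (log2 fold change -2.12, adjusted p = 0.108, edgeR).

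A further pair, named after their values were seen, passed the adjusted p but not the fold change. Smad7, the inhibitory SMAD shared by the BMP and TGF-β pathways, was 86.3 to 110 CPM in Sirt6-Ctrl against 122 to 153 CPM in Sirt6-KD (log2 fold change 0.51, adjusted p = 0.0201, edgeR). Nbl1, a secreted BMP antagonist of the DAN family, was 1009 to 1449 CPM in Sirt6-Ctrl against 793 to 884 CPM in Sirt6-KD (-0.53, adjusted p = 0.0298, edgeR). Over all genes, 21.9% had an adjusted p below 0.05 at any fold change. Smad6 and Smad7, the feedback inhibitors, thus had fold changes of opposite sign, that of Smad6 not passing the test.

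**Figure D5:**
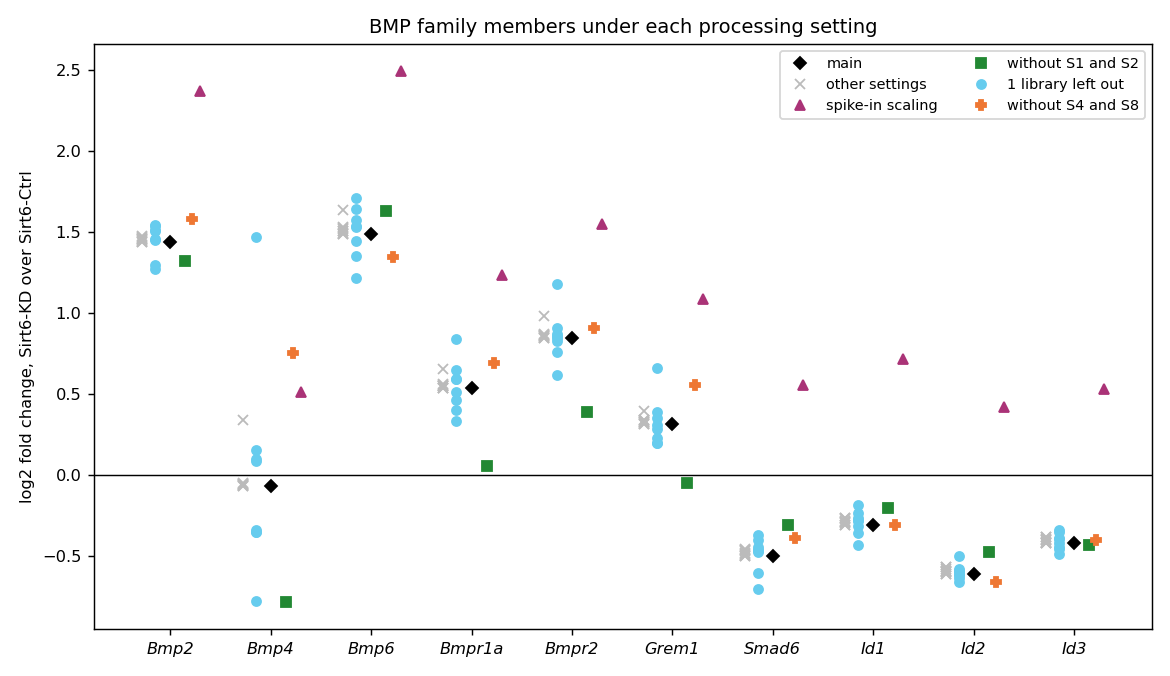
Log2 fold change of each BMP family gene (vertical) under the reported setting (black diamonds), with 1 library left out (light blue), without S1 and S2 (green), without S4 and S8 (orange), with spike-in scaling (purple) and under the other settings (grey crosses). Bmp2 and Bmp6 stay above 1.2 throughout, Bmp4 spans -0.79 to 1.47, and Bmpr1a, Bmpr2 and Grem1 drop without S1 and S2.

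RefSeq gene models on GRCr8 overlap those of Bmp4, Bmpr1a, Bmpr2 and Id1 among the 10 genes and of Smad5, Smurf2, Crim1, Runx2, Atoh8 and Acvr2a among the others named. The strand setting of the counting is not given in the sources used here, so reads of overlapping genes on opposite strands may have been counted together for these genes.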

How the data were processed

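RNA-seq of 8 libraries of rat NP cells was analysed. The authors deposited unnormalized counts for Ensembl genes and ERCC spike-ins. A second table deposited by the authors holds log2 fold changes and p-values of the comparison they ran and, for each library, a signal equal to the counts divided by 1 size factor. That table was used here for gene names only. The submitters' processing notes name Trimmomatic 0.36, STAR 2.5.2b, featureCounts (Subread 1.5.2), DESeq2 and the build Rnor_6.0.

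Groups were taken from the genotype labels. Rows were filtered with filterByExpr, which left 13313 rows including 63 of the 92 spike-ins, normalized by TMM and tested with edgeR 4.0.16 (glmQLFit, glmQLFTest, two-sided) in R 4.3.3, with Benjamini-Hochberg adjustment over all rows. Standard errors are the log2 fold change over the root of the F statistic. DESeq2 1.42.0 and limma 3.58.1 were alternatives, and the scripts were tested on simulated data. A count of 3 corresponds to 0.0727 to 0.0928 CPM, which covers counting error only. The 10 genes and all lists were chosen with earlier results of these data known. Named genes are the 10, called genes of the wider list, in each role without a call the tested gene with the most counts, and Sirt6. Leaving out S4 and S8 was added after the data were seen. The values of 1 gene of the wider list are not reported here.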

Additional observations from a re-analysis of the deposited data

Results flagged for a closer look

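Of 42 groups of 4 libraries examined for the named genes, 4 held a library set apart from the other 3 by a gap past Dixon's critical value at 95%. Chance alone flags about 1 group in 20, here 2.1 groups. The gap is given as a share of the whole range. For Bmp4, S4 was the highest control (0.990) and S8 the highest knockdown library (0.909). S8 was also the highest knockdown library for Id1 (0.838) and for Atoh8 (0.876). S4 and S8 had the highest summed smooth muscle marker levels of their groups, 2620 and 2154 CPM. Across genes (log2 of CPM + 1, genes not being independent replicates), S4 correlated with S8 at r = 0.960 and with S5 to S7 at 0.940 to 0.943. S4 correlated with S3 at 0.967 and with S1 at 0.962, and S8 correlated with S3 at 0.972. The value of S3 with S8 was not particular to S8, as S3 correlated at 0.971 to 0.973 with S5 to S7. Whether S4 and S8 came from the same rat cannot be told from the labels and was not tested. The part of the markers in the values was not tested either.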

How the results depend on the processing

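No paired analysis was possible because the labels and count columns carry no rat or experiment number shared between the groups. Of the 10 genes, 2 were called higher, against 0 with spike-in scaling, 1 with glmTreat and 2 to 4 with single libraries left out. The 1 called lower (Id2) became 0 with upper-quartile factors, spike-in scaling, spike-in rows removed, no filter, glmTreat or without S1 and S2, and 0 to 2 with single libraries left out. In the wider list, 6 were called higher, against 0 with spike-in scaling or glmTreat. There were 4 without S1 and S2 and 3 to 8 with single libraries left out. Its 1 lower call became 0 with spike-in scaling, glmTreat or without S1 and S2, 2 with no minimum fold change, and 0 to 2 with single libraries left out. Signs changed with spike-in scaling for Bmp4 (0.51), Smad6 (0.56), Id1 (0.72), Id2 (0.42) and Id3 (0.53), all below the median of all genes there (0.94). The sign of Bmp4 also changed with limma-voom (0.34) and without S4 and S8 (0.75), and ranged from -0.78 to 1.47 with single libraries left out, and that of Grem1 without S1 and S2 (-0.046). The cause was not tested. DESeq2 gave Bmp4 no adjusted p. The spike-in share differed by -4.09 to -1.82 percentage points with single libraries left out. Its exact permutation p was 0.0286 without any 1 control and 0.171 without any 1 Sirt6-KD library. Over all genes, 1063 were called higher and 1416 lower, against 20 and 4 with spike-in scaling and 92 and 185 with glmTreat. Calls over all genes also moved with single libraries left out. Without S1, S5, S6 or S7 they were 445 to 552 higher and 700 to 791 lower, and without S3 they were 1699 and 1913. Counting depth did not limit the 10 genes, whose lowest count was 420.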

Other observations

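Further BMP pathway genes, chosen after their values were seen, had groups that hardly or did not overlap and yet were not called. Nog, the secreted BMP antagonist noggin, had 66 to 148 reads in Sirt6-Ctrl and 4 to 58 in Sirt6-KD, with levels of 2.01, 2.04, 4.36 and 2.497 CPM in S1 to S4 and 0.868, 0.119, 0.600 and 1.72 CPM in S5 to S8. Every knockdown library was below every control. Its log2 fold change was -1.72 (95% confidence interval -3.39 to -0.05, adjusted p = 0.126, edgeR). Msx1, a homeobox target of BMP signaling, was 1.24, 0.309, 1.30 and 2.86 CPM in S1 to S4 and 6.02, 2.81, 6.15 and 4.62 CPM in S5 to S8. S6 lay just under S4, and the log2 fold change was 1.78 (95% confidence interval 0.39 to 3.16, adjusted p = 0.066, edgeR). Limma-voom and DESeq2 called Msx1 higher.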
